A study of Mus musculus with 20 samples.

Results

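The genes described here make up oxidative phosphorylation in the mouse kidney, encoded in 2 genomes. The mitochondrial members are the 13 protein-coding genes of the mitochondrial genome (ND1 to ND6, ND4L, CYTB, COX1 to COX3, ATP6 and ATP8). The nuclear members were chosen by symbol: those that begin with 1 of 12 prefixes of the subunit families (NDUFA, NDUFB, NDUFC, NDUFS, NDUFV, UQCR, COX4I, COX5, COX6, COX7, COX8 and ATP5), and Sdha, Sdhb, Sdhc, Sdhd and Cyc1. They numbered 92, so that 105 of the 15780 genes listed were members. The rule itself uses symbols and no measured value, although it was set with earlier results of these data known. The prefixes also take in 8 assembly factors of complex I, genes known as Ndufaf. By known function, 44 nuclear members belong to complex I, 4 to complex II, 9 to complex III, 18 to complex IV and 17 to complex V. The exception is Atp5sl, which was counted in complex V by its prefix. GENCODE places the 92 nuclear members on 19 chromosomes (GRCm38).

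Oxidative phosphorylation is the last stage of respiration. Complex I takes electrons from NADH and complex II from succinate, complex III passes them to cytochrome c, complex IV passes them to oxygen, and complex V, the ATP synthase, makes ATP from the proton gradient that complexes I, III and IV build. Complex II is encoded wholly in the nucleus, whereas the other complexes combine subunits of both genomes, which are transcribed by different polymerases in different compartments. In the kidney these complexes are densest in the proximal tubule and the thick ascending limb, where ATP drives salt transport.

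Kidneys of 20 female NCr nude mice (sp/sp homozygotes, 7 weeks old at purchase, which lack mature T cells) were sequenced, 5 mice per group and 1 library per mouse. EIC mice received 6 intravenous injections of engineered immune complexes of galactose-deficient IgA1 with a recombinant IgG autoantibody, and vehicle by gavage. EIC + S60 and EIC + S120 mice received the same injections and sparsentan at 60 and 120 mg/kg by gavage for 11 days. Control mice received PBS in place of the complexes, and vehicle by gavage. Sparsentan blocks the endothelin type A and the angiotensin II type 1 receptors, and kidneys were taken on day 12. The design asks how the immune complexes and the drug change kidney RNA, and the comparison below asks it of both genomes of oxidative phosphorylation.

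The poly(A)-selected libraries held 12662345 to 38651781 counts. Totals were 12662345, 14182836, 14388553, 37548347 and 38651781 in Control. They were 17403376 to 19635495 in EIC, 15220943 to 27948916 in EIC + S60 and 15915650 to 18180183 in EIC + S120. All Control totals lay outside the EIC and EIC + S120 ranges, so depth and treatment cannot be fully told apart there. CPM are counts per 1000000 after TMM scaling, which corrects library totals for genes that take unequal shares, and LFC is the log2 ratio of the first group named over the second. A gene was called where edgeR's quasi-likelihood test (two-sided, all 20 libraries) gave an adjusted p under 0.05 over the 13990 genes tested, and all 105 members were tested. Markers of the kidney were abundant in all libraries, with 13 proximal tubule genes summing to 14400 to 23700 CPM and 8 podocyte genes to 486 to 871 CPM. Whole kidney was sequenced, so fewer cells of a type and less RNA per cell cannot be told apart. Nothing in the sources ties mice of different groups to each other, and p-values measure the spread between single mice.

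Among the mitochondrial genes, 2 of the 20 libraries stood apart, Control 651 and EIC + S60 75. In these 2 libraries the 6 neighboring genes COX2, ATP8, ATP6, COX3, ND3 and ND4L were at 0.495 to 7.42 CPM, whereas the other 18 libraries had 50.1 to 1200 CPM of them. COX2, a catalytic subunit of complex IV, had 614, 542, 668, 649.9 and 3.40 CPM in EIC + S60 (mice 71 to 75 in order), and 4.21, 652, 499, 578 and 636 CPM in Control (mice 651 to 655). The low mouse is the last of the EIC + S60 values and the first of the Control values, and no other mouse comes near them. In raw counts, Control 651 held 156 reads of COX2 and 1480951 of COX1, and EIC + S60 75 held 96 reads of COX2 and 1048390 of COX1. Against the median of the other libraries of their group, the 6 genes were 77.3- to 186-fold lower in these libraries. The 7 other mitochondrial genes (ND1, ND2, COX1, ND4, ND5, ND6 and CYTB) were not: the same ratio lay between 0.896 and 1.31. Both libraries are among the 3 with more than 25000000 counts.

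The 6 genes lie side by side on the mitochondrial genome and have a near-identical copy on chromosome 1. A run of 7 annotated unprocessed pseudogenes (chr1:24611535-24616197, minus strand, GRCm38, 4663 bases) copies this stretch. COX2 matched Gm28661 at 100% of 681 aligned bases, ATP6 matched Gm10925 at 100% of 678, COX3 matched Gm28437 at 100% of 783 and ND4L matched Gm10222 at 100% of 294. ND3 matched Gm28438 at 99.71% of 345 bases. ATP8 lies between COX2 and ATP6 and has no annotated copy of its own in the run, and its best annotated match elsewhere was at 81.44%. Of the genes at ordinary levels, ND4 matched the run over 876 of 1378 bases and COX1 over 483 of 1545 bases. COX1 also matched Gm13340 on chromosome 2 at 97.6% over all 1545 bases, CYTB's best match (Gm11410, chromosome 4) was at 92.91% of 1142 bases, and ND1's best match was at 76.62%.

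A gene of each kind is shown beside its copy. The first 300 aligned bases of ND3 (chrM:9459-9758) and of Gm28438 (chr1:24612820-24613119, minus strand) have 1 differing base, in capitals. Below them stand the first 150 aligned bases of CYTB (chrM:14146-14295), a gene at ordinary levels in both libraries, and of Gm11410 (chr4:80003990-80004139), with the 10 differing bases in capitals. All are from GENCODE transcripts on GRCm38, 5′ to 3′.
ND3: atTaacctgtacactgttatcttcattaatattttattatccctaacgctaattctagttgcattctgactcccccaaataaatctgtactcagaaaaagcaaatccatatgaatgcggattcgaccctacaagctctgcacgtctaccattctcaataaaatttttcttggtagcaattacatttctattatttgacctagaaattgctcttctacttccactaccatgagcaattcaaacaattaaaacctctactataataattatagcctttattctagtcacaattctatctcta
Gm28438: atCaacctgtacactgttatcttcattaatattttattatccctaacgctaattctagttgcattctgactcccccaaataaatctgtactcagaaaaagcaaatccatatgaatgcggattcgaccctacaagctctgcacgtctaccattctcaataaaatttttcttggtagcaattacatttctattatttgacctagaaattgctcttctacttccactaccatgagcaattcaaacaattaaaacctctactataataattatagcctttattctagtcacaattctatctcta
CYTB: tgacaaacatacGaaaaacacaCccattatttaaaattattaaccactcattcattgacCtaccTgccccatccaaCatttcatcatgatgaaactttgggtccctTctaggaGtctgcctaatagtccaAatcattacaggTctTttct
Gm11410: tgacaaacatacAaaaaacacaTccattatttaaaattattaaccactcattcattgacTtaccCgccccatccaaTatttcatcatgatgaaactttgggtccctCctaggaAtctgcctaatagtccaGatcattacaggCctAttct

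The letters of ND3 and its copy differ at 1 of 300 positions shown, and those of CYTB and its copy at 10 of 150. None of these copies is a row of the count tables. Counts of genes that share reads with a near-identical copy are uncertain. Annotated copies alone do not separate the 6 genes from the 7 others in full. ATP8 has no close annotated copy, and ND4 has one over part of its length. The chromosome 1 bases between the copies of ATP6 (ending at 24614651) and COX2 (starting at 24614885) are in no annotated copy of the run. They lie where ATP8 would fall in the order of the genes, and were not compared with it. Per kb of exon the 6 genes averaged 164 to 1196 CPM over the 20 libraries, against 5470 (ND4) to 26680 (COX1) for the 7 others. With a bar of a 5-fold lower level in both libraries, 14 rows of the tables stood out, the 6 genes and 8 that are no members, among them Rps27rt, Rpl14-ps1 and Rpl17-ps10, which are named as retrogenes or pseudogenes of ribosomal proteins. Whether multi-mapping reads were handled differently in these 2 libraries was not tested.

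**Figure D1:**
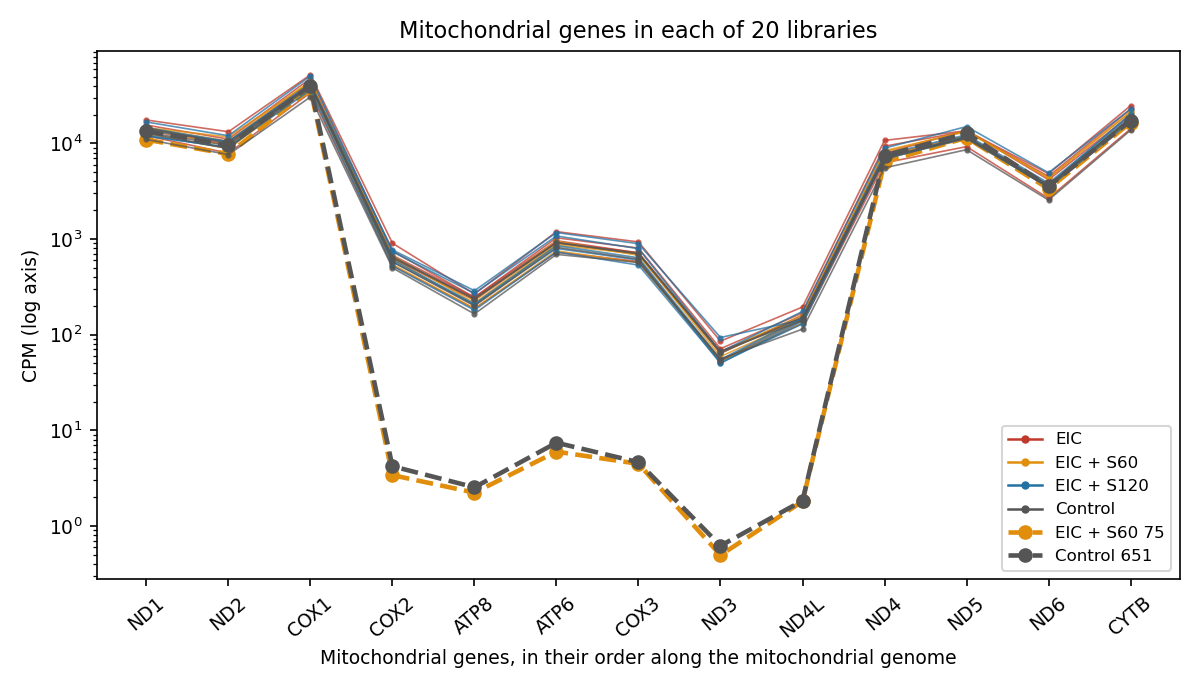
CPM (log axis) of the 13 mitochondrial genes in each of the 20 libraries, in genome order, 1 line per mouse and colored by group. Control 651 and EIC + S60 75 (thick dashed lines) fall to 0.495 to 7.42 CPM from COX2 to ND4L and lie among the other lines at the 7 other genes.

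COX1, the core subunit of complex IV, was the most abundant member of either genome, at 43780 ± 6896 CPM in EIC, 40580 ± 3487 in EIC + S60, 42160 ± 5330 in EIC + S120 and 38340 ± 4344 in Control (mean ± SD, n = 5 each). By mouse it had 33850, 43650, 47770, 52170 and 41450 CPM in EIC and 39930, 40870, 30620, 39630 and 40650 CPM in Control. The ranges overlapped, with 4 EIC mice above all Control mice and EIC 65 below 4 of the 5 Control mice. ND4, a proton-pumping subunit of complex I, had 6260, 7869, 9342, 10740 and 7438 CPM in EIC and 7438, 7210, 5548, 6814 and 7039 CPM in Control. It was the mitochondrial gene with the smallest p in EIC vs. Control and was not called (LFC 0.29, SE 0.16, adjusted p = 0.247). CYTB, the mitochondrial subunit of complex III, ranged over 14190 to 24780 CPM in EIC, 16530 to 21410 in EIC + S60, 16880 to 22900 in EIC + S120 and 13720 to 18520 in Control. ND6, the mitochondrial gene on the other DNA strand, ranged over 2662 to 4824 CPM in EIC, 3351 to 4360 in EIC + S60, 3449 to 4928 in EIC + S120 and 2556 to 3650 in Control. For each of these genes the 4 groups overlapped. ND1, ND2 and ND5, further membrane subunits of complex I, had LFCs of 0.17, 0.20 and 0.14 in EIC vs. Control.

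No mitochondrial gene was called by edgeR in any of the 6 comparisons, and the smallest adjusted p was 0.247. All 13 had positive LFCs in EIC vs. Control, with a median of 0.29, and in EIC + S120 vs. Control, with a median of 0.22. Over the 7 genes at ordinary levels these medians were 0.20 and 0.15. Over all genes tested, 47.6% of LFCs were positive in EIC vs. Control and 46.8% in EIC + S120 vs. Control. With library totals in place of TMM scaling, 13 and 12 of the 13 were positive in these comparisons, with medians of 0.23 and 0.12. The LFCs of the 6 others, 0.48 to 0.56 in EIC vs. Control, rest on Control 651, with SEs over 1, and without Control 651 the median of all 13 genes was 0.22. Single mice also moved these medians: in EIC vs. Control it was 0.19 without EIC 68, and in EIC + S120 vs. Control it was 0.13 without EIC + S120 79 and 0.14 without Control 653. All 13 LFCs were negative in EIC + S60 vs. EIC (median −0.15) and 12 were negative in EIC + S120 vs. EIC (median −0.06). Both medians depended on single mice. In EIC + S60 vs. EIC it was −0.05 without EIC 68, −0.10 without EIC + S60 75 and −0.24 without EIC 65. In EIC + S120 vs. EIC leaving out EIC 68 turned it to 0.01, and without each other mouse it was between −0.14 (without EIC 65) and −0.0032 (without EIC + S120 77). These comparisons share the EIC mice with EIC vs. Control, as all comparisons with Control share the Control mice. At an unadjusted p under 0.05, ND4 in EIC vs. Control was the only call among the 13 in the 6 comparisons, and DESeq2 and limma-voom called no mitochondrial gene in any of them.

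The shares of all counts that fell on each genome overlapped between all 4 groups. The 13 mitochondrial genes took 9.32, 11.01, 12.9, 13.7 and 10.9% of counts in EIC (mice 65 to 69), 10.8, 10.6, 11.5, 11.6 and 9.46% in EIC + S60 (mice 71 to 75), 10.4, 10.2, 12.5, 10.6 and 10.5% in EIC + S120 (mice 77 to 81) and 10.3, 10.9, 9.13, 10.8 and 11.1% in Control (mice 651 to 655). EIC 67, EIC 68 and EIC + S120 79 were the highest, Control 653 and EIC 65 the lowest. The 92 nuclear members took 2.65 ± 0.0143% in EIC, 2.63 ± 0.0682% in EIC + S60, 2.70 ± 0.154% in EIC + S120 and 2.59 ± 0.103% in Control (mean ± SD, n = 5 each). EIC + S120 81 was the highest at 2.97% and Control 651 the lowest at 2.40%, and the other 18 libraries lay between 2.52 and 2.70%. EIC + S120 81, highest in nuclear share, had 10.5% mitochondrial counts. After TMM scaling, the median log2 deviation from the mean of the 20 libraries was 0.14 over the nuclear members and 0.37 over the 7 mitochondrial genes at ordinary levels in EIC 68, and 0.10 and 0.30 in EIC + S120 79. It was −0.10 and −0.31 in EIC 65, and −0.14 and −0.43 in Control 653. The same TMM factor scales both genomes of a library, so the 2 deviations are not independent. The factor was 1.12 in Control 653 and 0.930 in EIC + S120 79. As shares of counts, the nuclear members took 2.64% in Control 653 and 2.60% in EIC + S120 79, ranks 10 and 18 from the highest of the 20 libraries. In EIC 68, EIC + S120 79, EIC 65 and Control 653 the mitochondrial deviation was the larger in size. In 2 other mice the nuclear deviation was the larger, with the same sign in both genomes. EIC + S120 81 had 0.31 over the nuclear members and 0.05 over the 7 mitochondrial genes, and Control 651 had −0.19 and −0.03.

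**Figure D2:**
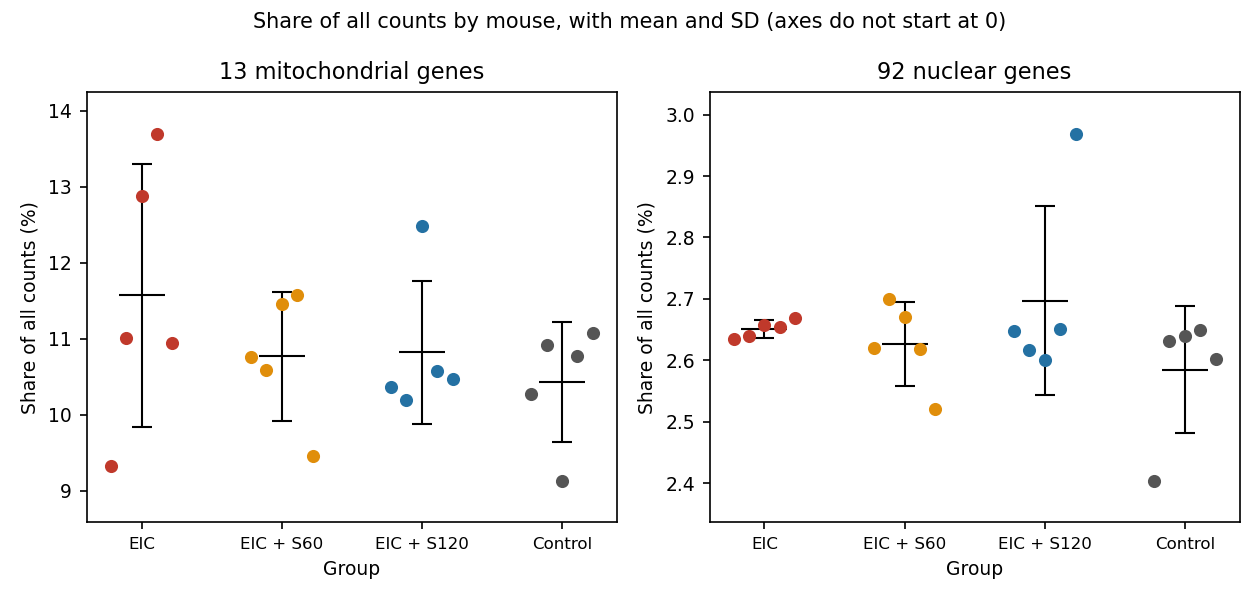
Share of all counts (%) from the 13 mitochondrial genes (left) and from the 92 nuclear genes (right), 1 point per mouse, with the mean and SD of each group (n = 5). The groups overlap on both sides, with EIC + S120 81 (2.97%) and Control 651 (2.40%) apart from the rest in the nuclear share.

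The nuclear genes spanned a wide range of levels. Per kb of exon, nuclear members had a median of 119 CPM over the 20 libraries, against 9500 for the 7 mitochondrial genes. Atp5b, the catalytic beta subunit of complex V, had the highest count level of the nuclear members, with a mean of 3427 CPM, and Atp5a1, the alpha subunit, the highest level per kb, 859 CPM. The most abundant nuclear member was Sdha in complex II (1058 CPM; the flavoprotein that oxidizes succinate), Cox4i1 in complex IV (966 CPM) and Uqcrc1 in complex III (598 CPM). Atp5b had 3246, 3501, 3539, 3682 and 4026 CPM in EIC + S120 and 3239, 3412, 3059, 3367 and 3308 CPM in Control, overlapping ranges with an LFC of 0.14 that was not called (adjusted p = 0.329 by edgeR). The 8 assembly factors of complex I were at 3.79 to 26.7 CPM per kb, with a median of 12.8.

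Nuclear members were called in EIC + S120 vs. Control only, where 7 of 92 were higher and none lower. Of all 13990 genes, 2.89% were called higher and 2.67% lower in that comparison. The 7 comprised 4 genes of complex I (Ndufv2, Ndufb4, Ndufb5 and Ndufa7), 1 of complex IV (Cox7c) and 2 by the prefix of complex V (Atp5j and Atp5sl). All 7 changes were small, with LFCs of 0.23 to 0.34.

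Ndufv2, an iron-sulfur subunit next to the site where complex I takes electrons from NADH, had 256, 289.9, 303, 289 and 338 CPM in EIC + S120 and 211, 249, 234, 243 and 255 CPM in Control (LFC 0.31, SE 0.08, adjusted p = 0.0246). Cox7c, a small subunit of complex IV, had 263, 249.8, 246, 265 and 307 CPM in EIC + S120 and 197, 208, 213, 226 and 205 CPM in Control (LFC 0.34, SE 0.09, adjusted p = 0.0293). Atp5j, coupling factor 6 in the stalk of complex V, had 257, 277, 283, 271 and 329 CPM in EIC + S120 and 217, 238, 240.5, 250.2 and 236 CPM in Control (LFC 0.26, SE 0.07, adjusted p = 0.0476). For these 3 genes every EIC + S120 mouse lay above every Control mouse, by a narrow gap for Ndufv2.

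Atp5sl is named after the ATP synthase but is also known as Dmac2, a factor that in human cells assembles the distal membrane arm of complex I. It had 58.9, 65.4, 62.5, 65.0 and 65.6 CPM in EIC + S120 and 51.8, 59.6, 53.3, 54.5 and 51.7 CPM in Control (LFC 0.23, SE 0.06, adjusted p = 0.0217). Only Control 652 reached into the EIC + S120 range. Ndufb5 and Ndufb4, accessory subunits of the membrane arm of complex I, came next. Ndufb5 had 162, 181, 198, 193 and 226 CPM in EIC + S120 and 154, 167, 149, 163 and 164 CPM in Control (LFC 0.27, SE 0.07, adjusted p = 0.0383). EIC + S120 77 lay within the Control range and the 4 other EIC + S120 mice above it. Ndufb4 had 76.2, 87.1, 93.0, 85.4 and 98.8 CPM in EIC + S120 and 77.4, 67.4, 68.1, 69.9 and 69.1 CPM in Control (LFC 0.32, SE 0.09, adjusted p = 0.0369). Control 651, the highest Control mouse, and EIC + S120 77 overlapped. Ndufa7, an accessory subunit of the peripheral arm, had 82.2, 94.6, 97.8, 92.7 and 105 CPM in EIC + S120 and 69.7, 81.0, 80.9, 78.5 and 83.0 CPM in Control (LFC 0.27, SE 0.08, adjusted p = 0.0437). EIC + S120 77 again fell among the Control mice.

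Against Control, edgeR called none of the 7 in EIC or in EIC + S60. DESeq2 called Atp5j and Atp5sl in EIC vs. Control. There Atp5sl had an LFC of 0.20 (adjusted p = 0.0656 by edgeR), and in EIC + S60 vs. Control it had 0.18 (adjusted p = 0.147 by edgeR). Ndufv2 ranged over 241 to 297 CPM in EIC and 231 to 290.1 in EIC + S60, and Cox7c over 204 to 286 in EIC and 197 to 265 in EIC + S60. Against EIC, the EIC + S120 mice had LFCs of 0.15 for Ndufv2, 0.16 for Cox7c, 0.04 for Atp5j and 0.03 for Atp5sl. Ndufb4 is the member with the largest positive LFC of that comparison and was not called (LFC 0.21, SE 0.09, adjusted p = 0.545). Counts of some of these genes are uncertain. Ndufb4 shares 390 bases at 100% identity with Ndufb4c, Cox7c shares 233 bases at 99.6% with the pseudogene Gm10012, and transcripts of Ndufb5 and Mrpl47 hold 530 identical bases and those of Atp5j and Gabpa 175. The strand setting of the counting is not given in the sources used here.

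**Figure D3:**
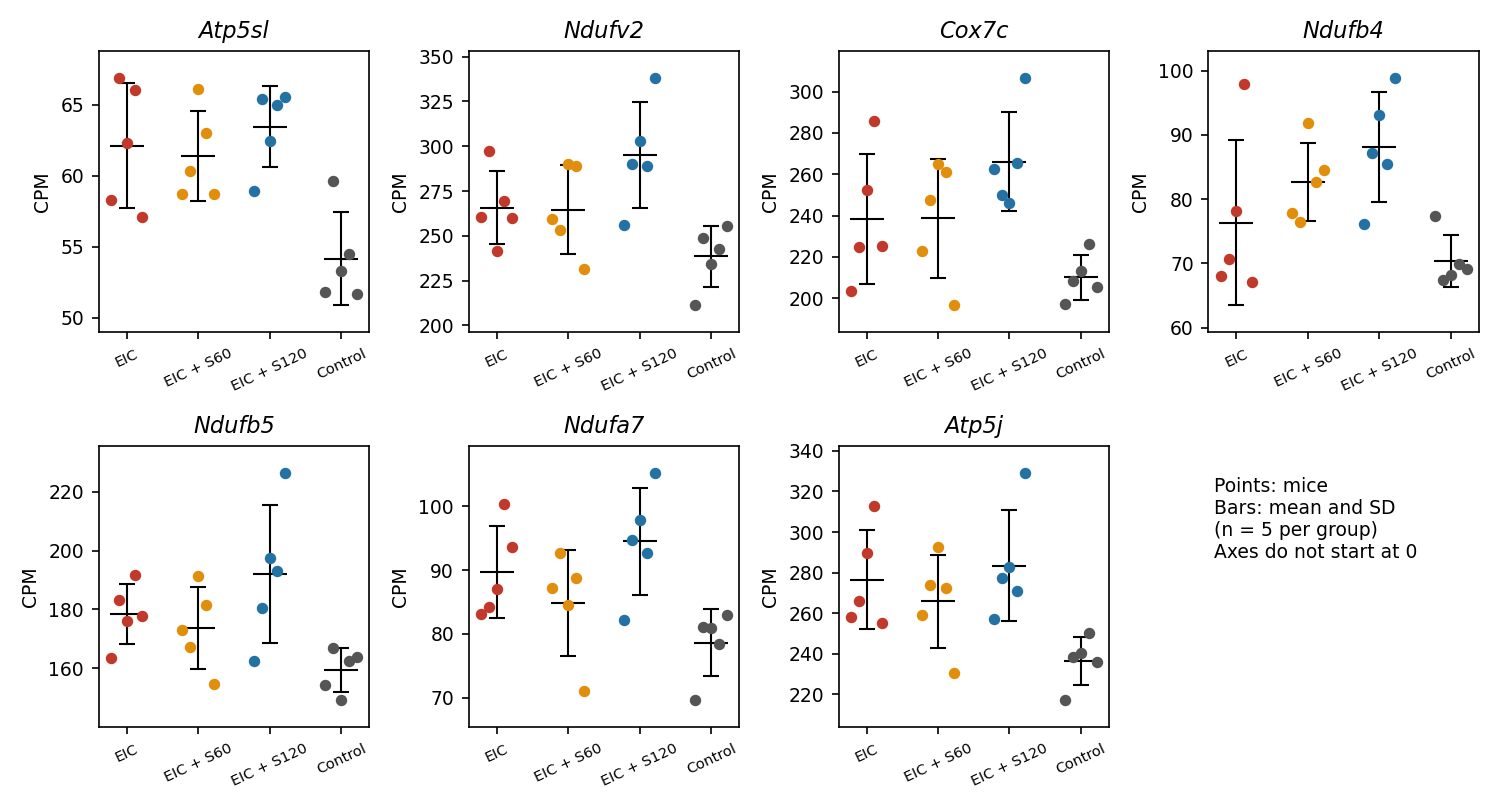
CPM of the 7 nuclear genes called in EIC + S120 vs. Control, 1 point per mouse, with the mean and SD (n = 5 per group); axes do not start at 0. For Ndufv2, Cox7c and Atp5j all EIC + S120 mice lie above all Control mice. The EIC mice reach into the Control range for Ndufv2 and Cox7c and lie above it for Atp5j, and the EIC + S60 mice reach into it for all 3 genes.

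The 7 calls did not hold under every scaling of the libraries. With RLE scaling 9 of the 92 were called higher, and with scaling without the mitochondrial rows 8, in both cases with the 7 among them. Of all 13990 genes, 428 and 410 were then called higher. TMM factors were 0.988 to 1.12 in Control, with Control 653 highest, and 0.924 to 1.06 in EIC + S120. With library totals alone, chosen as an alternative after the data were seen, none of the 92 was called higher and 1 was called lower, Ndufaf3 (LFC −0.25, adjusted p = 0.0265 by edgeR). The adjusted p of the 7 then ranged over 0.0546 to 0.191, with LFCs of 0.13 to 0.24. The same change of scaling turned 404 genes higher and 373 lower among all 13990 genes into 280 higher and 1079 lower, and moved the median LFC of all genes to −0.11, against −0.01 with TMM. Relative to the median of all genes, the median nuclear member was 0.18 higher in log2 units under both scalings. A change of scaling moves all genes of a library alike, so this value could hardly differ between the scalings. It does not show that the calls hold under either.

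Single mice moved the count as well. It was 24 without EIC + S120 77, 1 without EIC + S120 81 or without Control 655, 2 without Control 651, Control 652 or EIC + S120 80, 3 without Control 653, Control 654 or EIC + S120 79, and 4 without EIC + S120 78. DESeq2 called 21 and limma-voom 5, and 1 was called without the 3 libraries over 25000000 counts. Among all genes, 404 were called higher in the fit reported, 625 with DESeq2, 411 with limma-voom and 316 without those 3 libraries. Leaving out EIC + S120 77 gave 676, and leaving out EIC + S120 81 gave 268. Atp5sl and Ndufv2 were the steadiest: they were called in 19 and 18 of the 20 fits that left out 1 mouse, and Atp5j in 6.

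**Figure D4:**
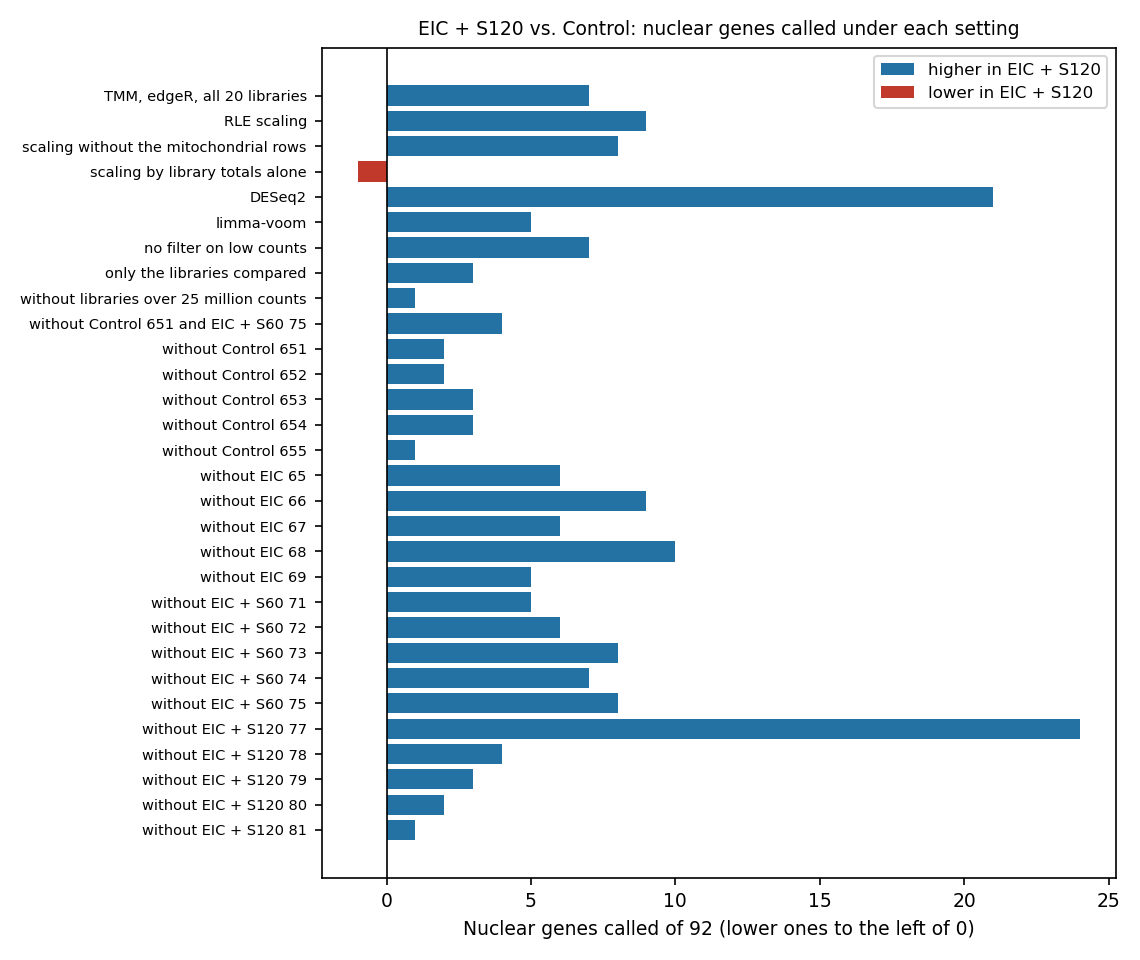
Number of the 92 nuclear genes called in EIC + S120 vs. Control under each setting, as bars to the right of 0 for genes higher in EIC + S120 and to the left for genes lower in it. The count is 7 in the fit reported, 21 with DESeq2, 24 without EIC + S120 77, and 0 higher with 1 lower when libraries are scaled by their totals alone. Among all genes, 404 were called higher in the fit reported, 625 with DESeq2 and 676 without EIC + S120 77. With library totals alone, 280 of all genes were higher and 1079 lower.

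Most nuclear members had LFCs of the same sign. In EIC + S120 vs. Control, 87 of 92 LFCs were positive with a median of 0.17, whereas 46.8% of LFCs over all genes were positive and their median was −0.01. By complex the medians were 0.16 for complex I (44 genes), 0.12 for complex II (4), 0.18 for complex III (9), 0.18 for complex IV (18) and 0.17 for complex V (17). All 54 accessory subunits and all 21 core subunits had positive LFCs, and 5 of the 8 assembly factors did. With library totals alone these numbers were 46, 18 and 2, and 70 of the 92 nuclear LFCs were positive with a median of 0.06. At an unadjusted p under 0.05 edgeR found 48 nuclear members higher and 1 lower, where 9.86% of all genes were higher at that level. The members are not independent of each other. EIC + S120 81 lay above the mean of the 20 libraries in 87 of the 92, and without EIC + S120 81 the nuclear median was 0.12.

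In 8 nuclear members every EIC + S120 mouse lay above every Control mouse (Atp5j, Cox6c, Cox7c, Atp5o, Ndufb9, Atp5h, Ndufv2 and Cox6b1), which held for 2.79% of all genes. Sdhb, the iron-sulfur subunit of complex II, was just outside the threshold (LFC 0.24, SE 0.07, adjusted p = 0.0527). It had 418, 491, 502, 474 and 572 CPM in EIC + S120 and 416, 429, 393, 416 and 431 CPM in Control, with EIC + S120 77 inside the Control range. Cox6b1, a subunit of complex IV on the side of cytochrome c, had 334, 343, 374, 348 and 396 CPM in EIC + S120 and 278, 317, 297, 318 and 311 CPM in Control, and was not called (adjusted p = 0.0716 by edgeR).

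A few markers of kidney cell types were also called between these groups, whereas the summed levels overlapped in each list below. No gene of the podocyte list or of the thick ascending limb and distal convoluted tubule list was called. The summed CPM of the 13 proximal tubule genes was 18500 to 23700 in EIC + S120, highest in EIC + S120 81, and 14400 to 20200 in Control. The proximal tubule genes Miox (LFC 0.56, SE 0.10, adjusted p = 0.00138) and Slc13a3 (LFC 0.51, SE 0.12, adjusted p = 0.0107) were called higher by edgeR, 2 of the 13 listed. The 11 collecting duct genes summed to 831 to 1140 CPM in EIC + S120 and to 927 to 1940 CPM in Control, highest in Control 653, and the water channel Aqp3 was called lower (LFC −0.45, SE 0.09, adjusted p = 0.00291 by edgeR). The 10 genes of the thick ascending limb and distal convoluted tubule summed to 4290 to 7860 CPM in EIC + S120 and 4740 to 8560 CPM in Control, and the 8 podocyte genes to 486 to 694 CPM in EIC + S120 and 517 to 871 CPM in Control. The part of cell makeup in the nuclear LFCs was not tested.

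**Figure D5:**
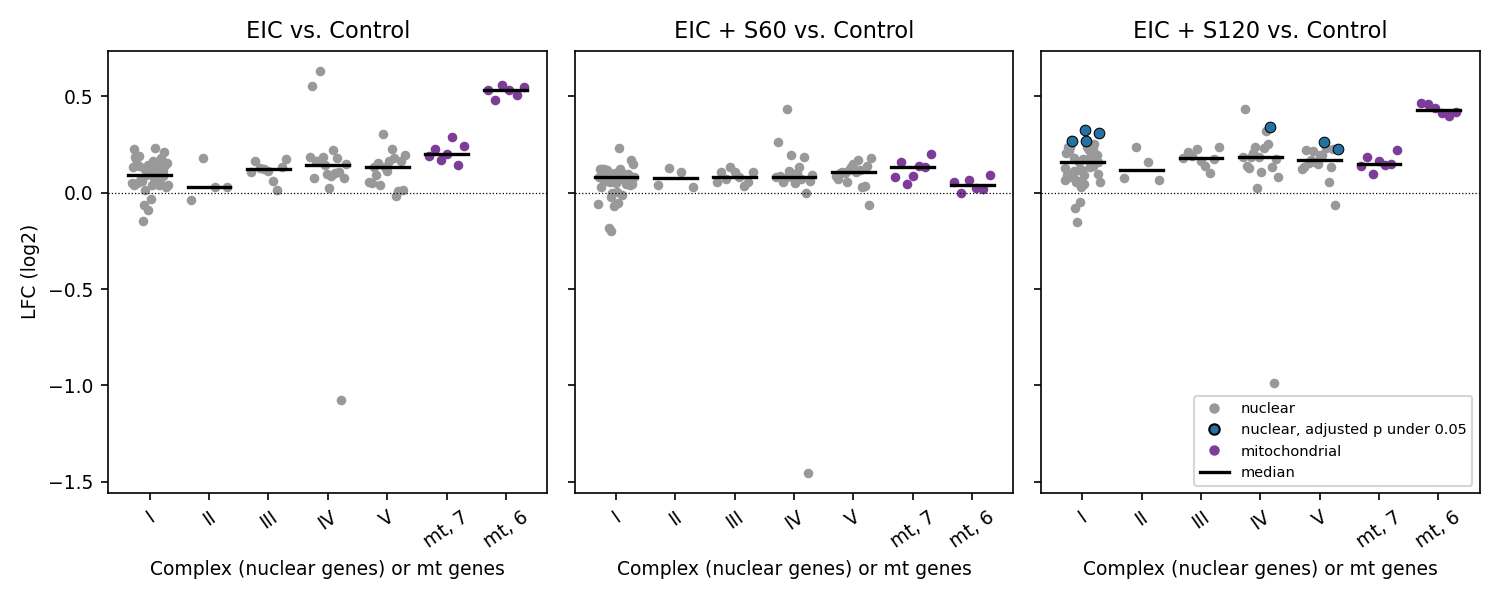
LFC (log2) of each member in the 3 comparisons against Control, as points by complex for the 92 nuclear genes and by set for the 7 mitochondrial genes at ordinary levels and the 6 that are low in Control 651 and EIC + S60 75, with black bars at the medians. Blue points are the 7 genes with an adjusted p under 0.05, all in EIC + S120 vs. Control. The medians shown are above 0 with TMM scaling, and with library totals alone the median of complex II was −0.03 in EIC vs. Control and that of the 6 genes −0.04 in EIC + S60 vs. Control.

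In EIC vs. Control, the effect of the immune complexes alone, no member was called by edgeR, where 1.61% of all genes were called higher and 1.37% lower. The smallest adjusted p was that of Atp5g1, a gene for the c subunit of the proton-driven ring of complex V (LFC 0.31, SE 0.08, adjusted p = 0.0509). It had 218, 280.1, 293, 279.7 and 254 CPM in EIC and 204, 206, 198, 242 and 222 CPM in Control. Of the EIC mice, 4 lay above all Control mice and EIC 65 among them. DESeq2 called 3 members, Atp5g1, Atp5j and Atp5sl, and limma-voom none. Of all 13990 genes, DESeq2 called 389 higher and limma-voom 209, so the 3 members lie near the share of all genes. At an unadjusted p under 0.05 edgeR found 18 nuclear members, all higher, and 1 mitochondrial gene, a share of nuclear members of 19.6% against 16.8% of all genes in either direction and 7.66% higher. Positive LFCs were found for 85 of 92 nuclear members, with a median of 0.11 (67 of 92 and 0.05 with library totals alone). All EIC mice were above all Control mice in 5 nuclear members (Atp5j, Uqcrc1, Ndufa7, Sdhb and Ndufs3) and in 1.98% of all genes. Uqcrc1, a large subunit of complex III on the matrix side, had 589.9, 636, 588, 601 and 602 CPM in EIC and 565, 562, 519.5, 565 and 582 CPM in Control (LFC 0.11, SE 0.06, adjusted p = 0.415). Macrophage genes moved in the same comparison: 7 of 11 listed were called higher, and their summed CPM was 100 to 263 in EIC and 82.5 to 105 in Control. The 7 red cell genes listed summed to 577 to 1260 CPM in EIC, highest in EIC 68, and to 394 to 613 CPM in Control. All 6 of them that were tested had positive LFCs with a median of 0.90, and 5 had an unadjusted p under 0.05, but edgeR called none, the smallest adjusted p being 0.0571 (Alas2, which makes heme in red cell precursors). DESeq2 called 3 of the 6 higher and limma-voom 1. The part of either cell type in the members' LFCs was not tested.

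Sparsentan added to EIC changed no member by the test. In EIC + S60 vs. EIC, edgeR called no member and 0% of all genes, and 2 of 92 nuclear members and no mitochondrial gene had an unadjusted p under 0.05, against 6.05% of all genes. The nuclear median was −0.03, with 31 of 92 LFCs positive, against 49.4% of all genes, and was −0.01 without EIC + S60 75, −0.02 without EIC 68 and −0.07 without EIC + S60 73. In EIC + S120 vs. EIC no member was called, where 0.0357% of all genes were called higher and 0.0214% lower, and 2 nuclear members passed an unadjusted p of 0.05, where 8.45% of all genes did: Atp5f1, a subunit of the stator stalk of complex V, and Ndufb4. Atp5f1 had 562, 609, 606, 627 and 739 CPM in EIC + S120 and 578, 615, 506, 512 and 569 CPM in EIC (LFC 0.18, SE 0.07, adjusted p = 0.518). The ranges overlapped. The nuclear median was 0.06, with 76 of 92 positive, against 50.5% of all genes (0.01 and 54 with library totals alone). Leaving out EIC + S120 81 turned this median to −0.01, and it was 0.03 without EIC 65 and 0.10 without EIC + S120 77. Neither DESeq2 nor limma-voom called a member in these comparisons.

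The doses differed by no called member. In EIC + S120 vs. EIC + S60 edgeR called none of the 105, where 0.0357% of all genes were called higher and 0.0286% lower. The nuclear median was 0.09, with 87 of 92 LFCs positive, against 50.2% of all genes, and 4 at an unadjusted p under 0.05, against 8.08%. Without EIC + S120 81 this median was 0.04. In EIC + S60 vs. Control the nuclear median was 0.08, with 82 of 92 positive, against 47.3%. With library totals alone the medians of these comparisons were 0.05 and 0.02. No member was called in EIC + S60 vs. Control either, where 0.808% of all genes were called higher and 0.479% lower, and 6 nuclear members had an unadjusted p under 0.05, 3 of them higher, against 12.7% of all genes. DESeq2 and limma-voom called no member in either comparison. Sdha, 1 of the 3 members with the largest positive LFC in EIC + S60 vs. EIC, had 1111, 978, 1168, 1080 and 1031 CPM in EIC + S60, against 971, 1238, 973, 949.5 and 941 CPM in EIC (LFC 0.08, SE 0.09, adjusted p = 0.917). Sdhc, a membrane anchor of complex II, had an LFC of 0.07 there (adjusted p = 0.914 by edgeR).

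None of the 8 Ndufaf assembly factors of complex I passed the test. Atp5sl, described above, is not counted among them. Ndufaf3, which helps to join the peripheral arm to the membrane, had 24.0, 22.7, 20.3, 21.8 and 21.9 CPM in the EIC + S60 mice. It had 21.6, 21.8, 22.9, 23.3 and 25.1 CPM in EIC + S120, against 24.9 to 26.5 CPM in Control. Every EIC + S60 mouse lay below every Control mouse (LFC −0.20, SE 0.06, adjusted p = 0.096), which held for 1.74% of all genes, and EIC + S120 81 was the only EIC + S120 mouse within the Control range (LFC −0.15, SE 0.06, adjusted p = 0.136). Ndufaf1 had LFCs of −0.15 in EIC vs. Control, −0.18 in EIC + S60 vs. Control and −0.08 in EIC + S120 vs. Control. Ndufaf7, a methyltransferase, had −0.09 in EIC vs. Control, and Ndufaf8 had −0.07 in EIC + S120 vs. EIC + S60. The medians of the 8 factors were 0.05, −0.01 and 0.04 in the comparisons of EIC, EIC + S60 and EIC + S120 with Control.

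Complex IV has isoforms that are made in particular tissues, and the kidney used the common ones. Per kb of exon, Cox6a1 averaged 757 CPM and its muscle form Cox6a2 1.66, Cox8a 721 and Cox8b 5.79, Cox4i1 623 and Cox4i2 1.12, Cox6b1 473 and the testis form Cox6b2 7.63, Ndufa4 287 and Ndufa4l2 4.51, and Cox7a2 256 and Cox7a1 26.8. Cox7a2l, a factor that joins complexes III and IV into supercomplexes, averaged 86.3 CPM per kb. None of these was called in any comparison.

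Cox8b and Cox6a2 had the widest LFCs among nuclear members at 1 CPM or more. Cox8b, expressed in muscle and brown fat, had 13.4 CPM in Control 653 and 0.349 to 3.19 CPM in the other 19 libraries. Its LFCs of −1.08 in EIC vs. Control, −1.45 in EIC + S60 vs. Control and −0.99 in EIC + S120 vs. Control rest on that mouse. Control 653 also held 93.1 CPM of Ucp1, the uncoupling protein of brown fat, and the 11 listed adipocyte markers summed to 511 CPM there and to 97.4 CPM at most elsewhere. Cox7a1, shared by muscle and brown fat, was highest in the same mouse, at 21.0 CPM, against 9.63 to 19.0 CPM elsewhere. The muscle markers listed, 7 of 12, summed to 83.5 CPM in Control 653 and to 38.9 to 86.8 CPM over all libraries. Whether fat tissue in that sample set these values was not tested. Cox6a2 had 0.869, 1.92, 1.19, 1.58 and 1.31 CPM in EIC and 0.566, 0.577, 0.996, 1.63 and 0.851 CPM in Control (LFC 0.63, SE 0.32, adjusted p = 0.375), at levels of about 1 CPM where few reads set the value.

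Genes of related pathways were called in small numbers and in both directions. In EIC + S120 vs. Control, 3 of 20 listed electron carriers outside the complexes were called higher and 1 lower, where 2.89% of all genes were called higher and 2.67% lower. Counts of 1 or 2 genes in the longer lists lie near these shares. Gpd2, the glycerol phosphate dehydrogenase that feeds electrons to ubiquinone, was lower (LFC −0.67, SE 0.09, adjusted p = 0.000119), and it was lower in EIC + S60 vs. Control (LFC −0.48, SE 0.09, adjusted p = 0.00751) and in EIC vs. Control (LFC −0.42, SE 0.09, adjusted p = 0.0165 by edgeR). Etfb, which passes electrons from fatty acid oxidation, was higher (LFC 0.42, SE 0.10, adjusted p = 0.0205), as were Coq2 (LFC 0.29, SE 0.06, adjusted p = 0.00989) and Pdss1 (LFC 0.35, SE 0.10, adjusted p = 0.0334), enzymes that make ubiquinone. In EIC vs. Control, 2 of the 20 were higher, Etfb and Coq10b, and Gpd2 was the 1 lower.

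Among 43 assembly factors outside the prefixes, 2 were higher and 1 lower in EIC + S120 vs. Control. Atpif1, the inhibitor of complex V, was higher (LFC 0.46, SE 0.09, adjusted p = 0.00501), as was Higd2a (LFC 0.28, SE 0.08, adjusted p = 0.0369), and Cox10, which makes heme for complex IV, was lower (LFC −0.29, SE 0.07, adjusted p = 0.0166 by edgeR). Of 78 mitochondrial ribosomal proteins, which translate the 13 mitochondrial messages, 1 was higher (Mrpl9, LFC 0.25), and their median LFC was 0.02, with 47 positive. Of 31 genes of mitochondrial DNA upkeep and transcription, 1 was higher (Hsd17b10, LFC 0.29) and 1 lower (Mterf2, LFC −0.60). Of 15 regulators of mitochondrial biogenesis none was higher and 2 were lower, Gabpb1 (LFC −0.36) and Tfe3 (LFC −0.24). None of 17 genes of the citric acid cycle was called in any comparison, and their median in EIC + S120 vs. Control was 0.10, with 15 positive. Of 8 tested uncoupling proteins and nucleotide carriers only Ucp1 was called, lower in EIC + S120, a value set by Control 653.

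The promoters of the nuclear members were searched for motifs of factors known to act on respiratory genes, in the window of 250 bases before to 50 after the start of each gene (RefSeq, GRCm38.p6), on both strands. Windows were found for 76 of the 92. The NRF1 motif (GCGCANGCG) was in 21 of 76 windows (27.6%) and in 6.47% of the 27025 windows of all genes, and the YY1 motif (AAGATGGCG) in 8 (10.5%) and in 1.49%. The ERR motif (TCAAGGTCA) was in 2 (2.63%, against 0.407%), the ETS motif (CCGGAAGT) in 5 (6.58%, against 4%) and the E-box (CACGTG) in 7 (9.21%, against 7.24%). Of the 7 genes called in EIC + S120 vs. Control, Ndufb4, Atp5sl and Ndufa7 held a match and Ndufv2, Cox7c, Ndufb5 and Atp5j none, which says only that these letters are not in the window. The windows of the 3 with a match are shown with the matches in capitals, NRF1 in Ndufb4 (chr16:37654319-37654618, minus strand), E-box and then YY1 in Atp5sl (chr7:25619164-25619463) and E-box in Ndufa7 (chr17:33824322-33824621).
Ndufb4: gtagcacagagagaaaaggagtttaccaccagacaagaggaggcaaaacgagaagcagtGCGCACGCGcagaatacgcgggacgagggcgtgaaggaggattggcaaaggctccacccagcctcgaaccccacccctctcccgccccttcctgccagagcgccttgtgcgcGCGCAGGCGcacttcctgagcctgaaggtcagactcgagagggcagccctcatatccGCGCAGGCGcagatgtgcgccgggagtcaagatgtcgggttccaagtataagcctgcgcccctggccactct
Atp5sl: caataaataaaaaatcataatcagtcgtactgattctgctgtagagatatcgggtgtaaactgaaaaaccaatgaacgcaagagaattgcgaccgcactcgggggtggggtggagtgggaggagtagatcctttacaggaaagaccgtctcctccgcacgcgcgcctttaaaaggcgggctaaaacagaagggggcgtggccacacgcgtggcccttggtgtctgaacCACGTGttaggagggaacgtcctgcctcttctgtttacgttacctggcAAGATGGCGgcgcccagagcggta
Ndufa7: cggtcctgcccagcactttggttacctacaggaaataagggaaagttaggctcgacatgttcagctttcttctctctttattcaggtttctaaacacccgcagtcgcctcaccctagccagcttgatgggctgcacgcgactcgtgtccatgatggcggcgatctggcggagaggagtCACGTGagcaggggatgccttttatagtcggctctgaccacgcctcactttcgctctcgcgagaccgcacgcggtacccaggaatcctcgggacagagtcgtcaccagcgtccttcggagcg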

How the data were processed

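Kidney RNA of 20 mice was measured as counts per gene after poly(A) selection. Per the labels and methods, the authors used Trimmomatic 0.36 for trimming, STAR 2.5.2b for alignment (GRCm38) and featureCounts (Subread 1.5.2) for counting. Values were deposited as raw counts of 15780 genes, none of them at 0 in EIC 65. Annotation, strand setting and multi-mapping rule: not given in the sources used here. Library totals were 12662345 to 38651781.

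A gene was tested if 5 or more libraries held 10 or more counts (13990 genes). TMM scaling, 1 coefficient per group and edgeR's robust quasi-likelihood test (edgeR 4.0.16, R 4.3.3) were used, two-sided, with Benjamini-Hochberg adjustment. SEs came from limma-trend (limma 3.58.1; log2 CPM, prior count 2). Shares and lists were described without a test. In simulated counts for EIC vs. Control (13990 genes), 29 of 50 genes changed by 0.5 log2 units were called, 42 of 50 by 1, 48 of 50 by 1.5 and 47 of 50 by 2, and 5 of 171 calls were false.

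Named were the 13 mitochondrial genes, the most abundant nuclear member of each complex, every member called, the 3 members with the most positive and the 3 with the most negative LFC per comparison (mean of at least 1 CPM), the isoform pairs, and up to 3 genes of each list per comparison. Atp5a1, Sdhb and the genes listed because groups did not overlap were named after their values were seen. A gene that the rule names is not reported here. Members, lists and rules were chosen with earlier results of these data known. Exon lengths and copies (blastn) come from GENCODE vM21 transcripts (GRCm38), promoters from RefSeq. Alternatives were RLE scaling, scaling without the mitochondrial rows, DESeq2 1.42.0, limma-voom, no filter, only the libraries compared, leaving out the 3 libraries over 25000000 counts, and leaving out each mouse. Scaling by library totals alone and leaving out Control 651 and EIC + S60 75 together were added after the data were seen.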

Additional observations from a re-analysis of the deposited data

Results flagged for a closer look

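Among 96 sets of 5 mice tested for a mouse far from the 4 others, 21 were flagged, and 13 of the 21 flags fell on Control 651 and EIC + S60 75. Chance flags about 1 in 20 independent sets. These sets share mice and neighboring genes and are not independent, so the count cannot be judged against that rate. In EIC + S60 75 the low values were 5.98 CPM of ATP6, 2.23 CPM of ATP8, 3.40 CPM of COX2, 4.46 CPM of COX3, 0.495 CPM of ND3 and 1.80 CPM of ND4L. In Control 651 they were 7.42 CPM of ATP6, 4.21 CPM of COX2, 4.64 CPM of COX3, 0.620 CPM of ND3 and 1.83 CPM of ND4L. Control 651 also stood apart with a low share of nuclear members, 2.40% of counts, and a high level of Ndufb4, 77.4 CPM.

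Control 653 was low in COX1 at 30600 CPM, in CYTB at 13700 CPM and in ND6 at 2560 CPM, and high in Cox8b at 13.4 CPM. EIC + S120 79 was high in its mitochondrial share, 12.5% of counts, in ND5 at 15000 CPM and in ND6 at 4930 CPM. EIC + S120 81 was high in the nuclear share, 2.97% of counts.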

How the results depend on the processing

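No paired analysis was possible because the mouse numbers in the labels differ between all groups. In EIC + S120 vs. Control, 7 members were called, and the number was 21 with DESeq2, 3 with only the libraries compared, 1 without the libraries over 25000000 counts, 4 without Control 651 and EIC + S60 75, 1 (Ndufaf3, lower) with library totals alone, and 1 to 24 when each mouse was left out in turn. Among all genes, 404 were called higher there, 625 with DESeq2, 285 with only the libraries compared and 316 without the libraries over 25000000 counts. That number was 447 without Control 651 and EIC + S60 75, 280 (and 1079 lower) with library totals, and 268 to 676 leaving out each mouse. RLE scaling called 9 members higher there, scaling without the mitochondrial rows 8 and limma-voom 5, against 428, 410 and 411 of all genes. In EIC vs. Control, 0 members were called, and the number was 1 with RLE scaling, 1 with scaling without the mitochondrial rows, 1 with no filter on low counts, 3 with DESeq2, and 0 to 2 when each mouse was left out. Among all genes, 225 were higher there, 232 with RLE scaling, 238 without the mitochondrial rows, 230 without the filter and 389 with DESeq2. In the 4 other comparisons the number of members was 0 under every alternative run. The cause of these differences was not tested, other than that some fits hold fewer mice.

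As a mean of log2 CPM over the members in place of their share of counts, the mitochondrial log2 ratio was 0.809 in EIC vs. Control, −0.745 in EIC + S60 vs. EIC, 0.741 in EIC + S120 vs. Control and 0.677 in EIC + S120 vs. EIC + S60, since that mean weighs the 6 genes that are low in Control 651 and EIC + S60 75 as much as the 7 others. As shares the ratios were 0.149, −0.103, 0.053 and 0.007. The nuclear log2 ratio was likewise 0.105 in EIC vs. Control, 0.073 in EIC + S60 vs. Control and 0.153 in EIC + S120 vs. Control, and as shares 0.036, 0.023 and 0.061. Of 7825 values of single genes under the alternatives, none reversed a called direction. Only values of called genes could count as such a reversal, so this number is no measure of how stable the other LFCs are. In counts simulated for EIC vs. Control, 29 of 50 genes changed by 0.5 log2 units were called. No simulation was run for the other comparisons.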
